A study of Danio rerio with 12 samples.

Results

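The comparison set unamputated adult zebrafish hearts that carry a dnHIF1a transgene against unamputated wild-type hearts. It used 6 of the 12 arrays of the series, 3 per group, chosen by their titles alone, and covered all 15502 probe sets that are not array controls. The dnHIF1a hearts carry 3 transgene cassettes, each behind the heart muscle promoter cmlc2a (myl7). The first encodes Ert2-Cre-Ert2, a Cre recombinase fused to oestrogen receptor domains, the second is LnL:GFP and the third is LrL:dnHIF1a. The controls (WT) are AB line hearts with wildtype given as their genotype. All fish were adult and sexually mature, and the labels give no treatment for these 6 arrays. The other 6 arrays, 3 per genotype, came from hearts taken 7 days after amputation. They are used here to set the same difference beside that of uninjured hearts, and they share 1 estimate of the spread with them. Ages, the background of the transgenic line and the use of tamoxifen are not given in the labels, so transgene and line background cannot be told apart. Nothing in the labels tells separate fish from pools or repeat arrays. The p-values therefore cover only the spread among arrays within groups, over all 12 arrays, and this spread may be technical.

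Hypoxia-inducible factor (HIF) is a transcription factor made of an oxygen-labile alpha subunit and the stable partner ARNT. At ample oxygen, prolyl hydroxylases of the egln family mark the alpha subunit for the VHL ligase and its degradation, and at low oxygen the pair switches on genes of glycolysis, vessel growth and matrix processing. A dominant negative alpha subunit competes with the endogenous one and blocks this output, and the zebrafish heart is known for its regrowth of muscle after part of the ventricle is removed. The series asks about the role of hypoxia signalling in that regrowth, and the comparison of uninjured hearts gives the state from which the 2 genotypes start.

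Expression values are log2 units after RMA, and the medians of the arrays lay between 5.55 and 5.59. Correlations across probe sets were 0.995 to 0.996 between dnHIF1a arrays, 0.992 to 0.994 between WT arrays and 0.984 to 0.986 between the genotypes. The heart label was borne out by the 9 measured heart muscle markers, whose means over all arrays ran from 10.21 to 14.71, each above the array medians. The mean of these markers was 12.86 to 12.88 on dnHIF1a arrays and 12.90 to 12.96 on WT arrays. The mean of 24 red blood cell markers overlapped between the genotypes, with 7.02, 7.5 and 7.23 on dnHIF1a arrays and 7.02, 7.21 and 6.83 on WT arrays.

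Between the genotypes, 1764 probe sets (11.4%) passed an adjusted p of 0.05 in limma, with 902 higher (5.82%) and 862 lower (5.56%) in dnHIF1a hearts. The unadjusted p was under 0.05 for 3829 probe sets. Among the 8793 genes, each represented by 1 probe set, 1103 (12.5%) passed, with 554 higher (6.3%) and 549 lower (6.24%). Counts of called genes in every list are read against these shares. A called difference of at least 1 log2 unit was reached by 254 probe sets (1.64%), 148 higher (0.955%) and 106 lower (0.684%) in dnHIF1a hearts. The groups did not overlap for 4170 probe sets (26.9%). For the 12 highest and 12 lowest genes named below, no overlap was a condition of the choice and is no result. Most other named genes were chosen because they were called, which makes no overlap likely. For them it describes the values and adds no support. The median difference over all probe sets was -0.0233 log2 units. Each difference given is the dnHIF1a mean minus the WT mean (log2, n = 3 each), followed after ± by limma's standard error. Adjusted p-values come from limma's test after Benjamini-Hochberg correction across the 15502 probe sets. A probe set or gene is said to have risen or fallen only where that adjusted p was under 0.05.

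Among the genes that met the rule for naming, the largest rise was that of mhc1ufa, a gene of the MHC class I family, whose products present peptides on the cell surface. It read 9.39, 9.73 and 10.12 on dnHIF1a arrays and 3.35, 3.44 and 3.74 on WT arrays, a difference of 6.24 ± 0.224 (adjusted p = 1.05e-08). The groups lay far apart, and the WT values were below the array medians, where the files give no measure of background. No fold is stated, and the size of the difference, like its rank, holds only for the values as normalized. The same limit applies to every gene named here with a group below the medians. The cytosolic sulfotransferase gene sult2st1 read 9.91, 10.55 and 10.21 on dnHIF1a arrays and 5.54, 6.23 and 6.03 on WT arrays, 19.6-fold higher in dnHIF1a hearts (4.29 ± 0.203, adjusted p = 1.04e-07). The glycogen phosphorylase gene pygl, known as the liver form, read 8.55, 8.22 and 8.39 on dnHIF1a arrays and 4.8, 5.62 and 5.03 on WT arrays (3.24 ± 0.192, adjusted p = 5.85e-07). Its other 2 probe sets rose too, by 2.4 and 1.05. The muscle receptor kinase gene musk, needed for the nerve to muscle synapse, read 8.14, 7.76 and 9.66 on dnHIF1a arrays and 5.12, 3.63 and 4.27 on WT arrays (4.18 ± 0.441, adjusted p = 6.56e-05). In none of these 4 genes did a dnHIF1a array fall within the range of the WT arrays, which the rule for naming required.

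Further large rises spanned several functions. The tubulin-binding protein gene tppp3 rose by 3.14 ± 0.297 and the mitochondrial carrier gene slc25a14 by 3.05 ± 0.346 (adjusted p = 2.74e-05 and 0.000118). The cell cycle inhibitor gene cdkn1ca (p57) read 8.72, 8.08 and 6.89 on dnHIF1a arrays and 4.7, 4.87 and 5.17 on WT arrays (2.98 ± 0.382, adjusted p = 0.000292). The third dnHIF1a array was the lowest of its group for cdkn1ca and still above all WT arrays. The Rac pathway adaptor gene elmo2 (2.6 ± 0.271), the tight junction gene cldn11a (2.32 ± 0.241) and the leucine-rich repeat gene lrrc4.1 (2.3 ± 0.159) complete the highest ranks together with pdk2b and rgs5a, described with their pathways. Of the other 2 probe sets of slc25a14, one was at 2.65 and one at 0.13.

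The largest fall among them was that of rnasekb, a ribonuclease gene, with 8.1, 6.6 and 7.54 on dnHIF1a arrays and 9.94, 9.72 and 9.97 on WT arrays (-2.46 ± 0.382, adjusted p = 0.00122), and its second probe set fell by 2.04. The adenylate kinase gene ak1, which balances the pool of adenine nucleotides, read 11.9, 12.02 and 11.83 on dnHIF1a arrays and 13.85, 14.1 and 14.02 on WT arrays, 4.21-fold lower in dnHIF1a hearts (-2.07 ± 0.108, adjusted p = 1.96e-07). The arrays of each genotype stood close together for ak1, far from those of the other genotype. The cytochrome c oxidase subunit gene cox7b read 11.46, 11.37 and 11.38 on dnHIF1a arrays and 13.04, 13.28 and 13.11 on WT arrays (-1.74 ± 0.0737, adjusted p = 3.92e-08). The argininosuccinate synthase gene ass1 fell by 1.84, the membrane scaffold gene mpp2b by 1.78, the lactate dehydrogenase B gene ldhbb by 1.74 and the p53 target gene phlda3 by 1.62. The collagenase gene mmp13a read 5.73, 5.78 and 5.53 on dnHIF1a arrays and 8.61, 6.27 and 8.1 on WT arrays (-1.98 ± 0.41, adjusted p = 0.0076). The second WT array was the lowest of its group for mmp13a, and the call was lost when only the unamputated arrays were fitted (adjusted p = 0.0567).

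**Figure D1:**
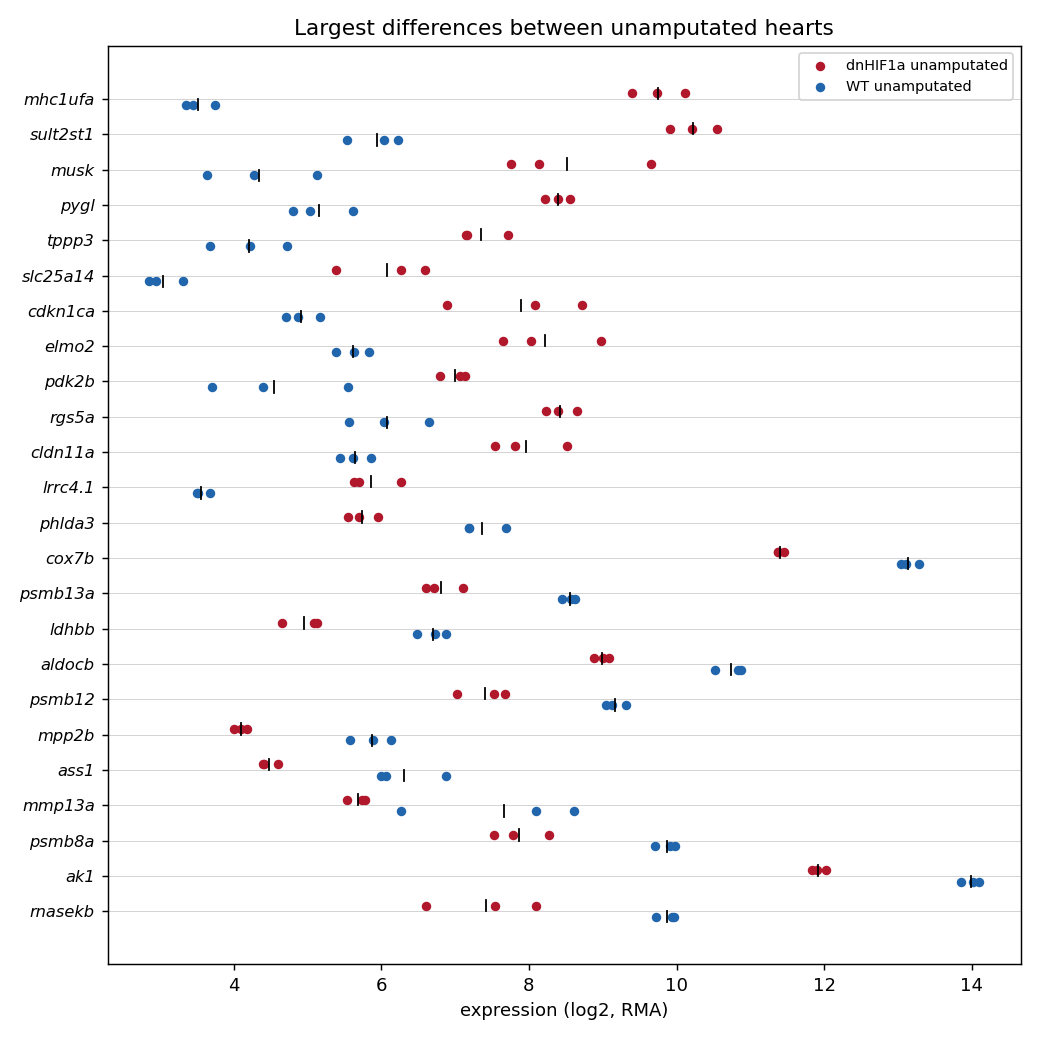
Log2 expression of the 12 genes with the largest rise and the 12 with the largest fall in dnHIF1a hearts among those that met the rule for naming, which leaves out clone-style symbols (1 gene per row), with 1 point per unamputated array (red, dnHIF1a; blue, WT) and a black bar at each group mean. The genotypes do not overlap in any row, which the choice of genes required, and ak1 and cox7b have tight groups while musk and rnasekb spread more.

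Whether any HIF alpha probe set reads the transgene is not known, since no probe sequences were used here. The probe set of hif1ab, a HIF1 alpha gene, read 9.61, 9.39 and 9.58 on dnHIF1a arrays and 10.34, 9.37 and 9.67 on WT arrays, so the groups overlapped (-0.27 ± 0.179, adjusted p = 0.41). Of 11 measured genes of HIF subunits and oxygen sensing, 2 rose and 1 fell, where 12.5% of all genes were called, with a median difference of -0.0267. hif1al, a gene named as similar to hif1a, rose with 8.23, 8.19 and 7.81 on dnHIF1a arrays and 6.92, 7.3 and 7.45 on WT arrays (0.85 ± 0.144, adjusted p = 0.0021). hif1an, which encodes the asparagine hydroxylase that inhibits HIF, fell with 6.68, 6.56 and 6.78 on dnHIF1a arrays and 7.48, 7.27 and 7.41 on WT arrays (-0.71 ± 0.101, adjusted p = 0.000617). Both genes separated the genotypes without overlap. The other call was cited4a, a coactivator-binding gene, with 11.01, 11.09 and 8.02 on dnHIF1a arrays and 7.14, 7.73 and 8.55 on WT arrays (2.23 ± 0.64, adjusted p = 0.0407). Here the third dnHIF1a array lay within the WT range, and the call was lost without dnHIF1a array 1 (1.75, adjusted p = 0.159) or 2 (1.71, adjusted p = 0.157) and without WT array 1 (1.9, adjusted p = 0.114) or 2 (2.19, adjusted p = 0.101). The HIF2 alpha genes, epas1a at -0.19 (adjusted p = 0.201) and epas1b at 0.31 (adjusted p = 0.0885), the partner gene arnt2 (-0.04, adjusted p = 0.857) and the hydroxylase genes egln1b (-0.1, adjusted p = 0.683) and egln3 (-0.03, adjusted p = 0.962) did not pass. hif1al2, also named as similar to hif1a, did not either (0.59 ± 0.36, adjusted p = 0.354). epas1b passed without dnHIF1a array 1 (0.43, adjusted p = 0.0211) and with the replicate number fitted as a block (0.31, adjusted p = 0.0492).

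HIF target genes outside glycolysis moved in both directions: of 30 measured, 6 rose and 4 fell, with a median difference of 0.045. The lactate exporter gene slc16a3b fell, with 9.61, 9.68 and 8.99 on dnHIF1a arrays and 10.79, 10.67 and 11 on WT arrays (-1.39 ± 0.173, adjusted p = 0.000227). So did the collagen prolyl hydroxylase genes p4ha1b (-1.1 ± 0.179, adjusted p = 0.00163) and p4ha2. The p4ha2 probe set read 7.37, 7.23 and 7.44 on dnHIF1a arrays and 8.25, 8.14 and 8.28 on WT arrays (-0.88 ± 0.0801, adjusted p = 2.04e-05). The vasoconstrictor gene edn1 (endothelin), chosen after its values were seen, fell by 1.23 ± 0.193 (adjusted p = 0.00137). For none of these 4 genes did the genotypes overlap. The 6 genes that rose were the iron carrier gene tfa (1.31 ± 0.169), the retinol carrier gene rbp4 (1.14 ± 0.104), the clock and HIF target gene bhlhe41 (1.06 ± 0.251), stc2a (0.92 ± 0.141), bnip3lb (0.56 ± 0.0911) and cox4i2 (0.49 ± 0.094). Both tfa and rbp4 also stand in the list of liver genes. The call of bhlhe41 was lost without WT array 2 (1.02, adjusted p = 0.0509) and without dnHIF1a array 1 (0.9, adjusted p = 0.073) or 2 (0.81, adjusted p = 0.0648). The angiogenic growth factor gene vegfaa read 7.84, 7.85 and 7.6 on dnHIF1a arrays and 7.71, 7.48 and 7.96 on WT arrays (0.05 ± 0.19, adjusted p = 0.919), and the mitophagy gene bnip3 differed by -0.22 ± 0.179 (adjusted p = 0.511).

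Of 32 measured genes in the list of glycolysis and glycogen enzymes 3 rose and 5 fell, with a median of -0.05. The list does not hold pygl or ldhbb, described with the largest differences. The aldolase gene aldocb read 9.08, 8.88 and 9.01 on dnHIF1a arrays and 10.83, 10.52 and 10.87 on WT arrays, 3.36-fold lower in dnHIF1a hearts (-1.75 ± 0.0971, adjusted p = 3.21e-07), and its second probe set fell by 1.57. The phosphoglucose isomerase gene gpib read 8.88, 8.97 and 9.08 on dnHIF1a arrays and 10.22, 10.28 and 10.48 on WT arrays (-1.35 ± 0.165, adjusted p = 0.000209). Both were lower on every dnHIF1a array than on any WT array. The pyruvate dehydrogenase kinase gene pdk2b, whose product holds pyruvate out of the citrate cycle, rose with 7.13, 7.07 and 6.8 on dnHIF1a arrays and 4.39, 3.7 and 5.55 on WT arrays (2.45 ± 0.536, adjusted p = 0.0104). The WT arrays spread widely and stayed below the dnHIF1a arrays for pdk2b. The related gene pdk4 (0.57 ± 0.144, adjusted p = 0.0223) and the phosphoglycerate kinase gene pgk1 (0.3 ± 0.082, adjusted p = 0.0328) were the other 2 of the list that rose. A second probe set of pgk1 was at 0.02. Without dnHIF1a array 1 both calls were lost (pdk4 0.48, adjusted p = 0.0966; pgk1 0.28, adjusted p = 0.108), as they were without dnHIF1a array 2 (pdk4 0.57, adjusted p = 0.0636; pgk1 0.31, adjusted p = 0.0727). The count of genes that rose was then 1. The call of pdk4 was also lost without WT array 1 (0.54, adjusted p = 0.0581) or 3 (0.53, adjusted p = 0.0642), and that of pgk1 without WT array 2 (0.21, adjusted p = 0.102) or dnHIF1a array 3 (0.31, adjusted p = 0.0745). The lactate dehydrogenase gene ldha read 11.36, 11.09 and 11.36 on dnHIF1a arrays and 10.86, 10.21 and 10.77 on WT arrays (0.66 ± 0.199, adjusted p = 0.052). Its groups did not overlap, and it passed without WT array 1 (0.78, adjusted p = 0.0381).

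Of 76 measured oxidative phosphorylation genes, 3 rose and 4 fell, where 12.5% of all genes were called, with a median of -0.0483. Beside cox7b, the complex IV gene cox4i1l read 12.98, 13.09 and 13.02 on dnHIF1a arrays and 13.67, 13.66 and 13.73 on WT arrays (-0.66 ± 0.0731, adjusted p = 0.000103). The complex I gene ndufa1 rose by 0.31 ± 0.0695. In the citrate cycle 2 of 29 genes rose (1 without WT array 1, WT array 2 or any 1 of the 3 dnHIF1a arrays) and 3 fell, among them malate dehydrogenase mdh1aa (0.58 ± 0.0648, adjusted p = 0.000105) and aconitase aco1 (-0.77 ± 0.104, adjusted p = 0.000429). Of 30 genes of fatty acid oxidation and uptake 1 rose (2 without WT array 1) and 2 fell (4 without WT array 2). The acyl-CoA synthetase gene acsl1a rose, with 8.73, 8.73 and 8.68 on dnHIF1a arrays and 8.06, 8.08 and 8.09 on WT arrays (0.64 ± 0.0802, adjusted p = 0.000257). The uncoupling protein gene ucp2 (-0.97 ± 0.169) and the coactivator gene ppargc1b (-0.88 ± 0.191) fell. The other 4 probe sets of acsl1a were at 3.39 (adjusted p = 1.05e-08), 2.46 (adjusted p = 1.15e-06), 0.7 (adjusted p = 0.00197) and 0.15 (adjusted p = 0.511). A second probe set of ppargc1b was at -0.14 (adjusted p = 0.592). The antioxidant gene prdx5 was 1 of 2 among 29 oxidative stress genes that rose (1.11 ± 0.0934, adjusted p = 1.3e-05). That number was 1 without WT array 1 or 3 or dnHIF1a array 2 or 3, and 1 gene fell without WT array 1, WT array 3 or dnHIF1a array 3, where 0 fell over all arrays (2 lower at an unadjusted p under 0.05).

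Genes of class I antigen processing were lower in dnHIF1a hearts, apart from 2 class I heavy chain genes. Of 16 measured, 11 fell and 2 rose, with a median difference of -0.443, a list that was drawn up with values of these arrays known. With a difference of at least 0.5 log2 units required as well, 7 counted as lower. The immunoproteasome is a form of the proteasome that trims peptides for class I molecules, and its subunit genes fell most. psmb8a read 7.79, 8.27 and 7.53 on dnHIF1a arrays and 9.71, 9.91 and 9.98 on WT arrays, 4.01-fold lower in dnHIF1a hearts (-2.0 ± 0.178, adjusted p = 1.73e-05). psmb12 read 7.52, 7.67 and 7.03 on dnHIF1a arrays and 9.32, 9.13 and 9.05 on WT arrays (-1.76 ± 0.174, adjusted p = 3.97e-05). Neither gene overlapped between the genotypes, and the same held for the next 2. psmb13a read 6.61, 7.1 and 6.71 on dnHIF1a arrays and 8.63, 8.57 and 8.45 on WT arrays (-1.74 ± 0.152, adjusted p = 1.6e-05). psmb9a read 6.28, 6.48 and 6.07 on dnHIF1a arrays and 7.59, 7.82 and 7.74 on WT arrays (-1.44 ± 0.123, adjusted p = 1.43e-05). The subunit gene psmb10, the activator genes psme1 and psme2 and the light chain gene b2m, chosen after their values were seen, fell less, by 0.49, 0.53, 0.64 and 0.37. The class I heavy chain genes ran both ways, with mhc1ufa far higher, mhc1uda 0.55 ± 0.162 (adjusted p = 0.0464) and mhc1uka, chosen after its values were seen, -0.25 ± 0.0645 (adjusted p = 0.0228). Leaving out WT array 1 (0.49, adjusted p = 0.116), WT array 3 (0.52, adjusted p = 0.106), dnHIF1a array 1 (0.65, adjusted p = 0.0506), dnHIF1a array 2 (0.57, adjusted p = 0.0965) or dnHIF1a array 3 (0.43, adjusted p = 0.165) ended the call of mhc1uda. The call of mhc1uka was lost without WT array 2 (-0.24, adjusted p = 0.0618), dnHIF1a array 1 (-0.26, adjusted p = 0.0616) or dnHIF1a array 2 (-0.22, adjusted p = 0.0971). Of 35 constitutive proteasome genes, 3 fell, where 12.5% of all genes were called. At an unadjusted p under 0.05, 9 were lower and 0 higher, and the median was -0.127.

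The interferon-responsive transcription factor gene irf1b, an inducer of class I genes, fell with 8.02, 8.01 and 8.82 on dnHIF1a arrays and 10.24, 9.49 and 9.44 on WT arrays (-1.44 ± 0.227, adjusted p = 0.00138). The guanylate-binding protein gene gbp1 fell by 0.88 ± 0.145 (adjusted p = 0.00178). In all, 4 of 14 measured interferon response genes fell, with a median of -0.21. That count was 2 without WT array 2 or without dnHIF1a array 1. The median was -0.139 without WT array 1 and -0.409 without dnHIF1a array 3. The mean of the 14 genes was 6.39, 6.43 and 6.96 on dnHIF1a arrays and 7.14, 6.83 and 6.81 on WT arrays, with overlap.

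Macrophage and pan-leukocyte markers were lower as a group. Of 25 measured, 16 fell, and 0 rose by limma's test or were higher at an unadjusted p under 0.05, with a median difference of -0.82. The mean of the 25 markers was 6.81 to 6.96 on dnHIF1a arrays and 7.58 to 7.74 on WT arrays, without overlap. The granulin gene grna read 5.45, 5.26 and 5.38 on dnHIF1a arrays and 6.84, 6.94 and 6.9 on WT arrays (-1.53 ± 0.0938, adjusted p = 6.74e-07). The leukocyte surface phosphatase gene ptprc (CD45) read 6.01, 5.97 and 5.66 on dnHIF1a arrays and 7.16, 7.15 and 7.05 on WT arrays (-1.24 ± 0.108, adjusted p = 1.65e-05). The scavenger receptor gene marco, chosen after its values were seen, read 6.54, 7.1 and 6.89 on dnHIF1a arrays and 8.42, 8.54 and 8.14 on WT arrays (-1.52 ± 0.179, adjusted p = 0.000151). All 3 genes separated the genotypes. In these bulk samples, fewer cells of a type and less RNA per cell cannot be told apart.

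Class II presentation genes, which professional antigen-presenting cells express, moved with the macrophage markers, and 5 of the 6 measured stand in both lists. Of the 6, 4 fell, with a median of -0.817. The lysosomal protease gene ctss2.2 read 8.44, 8.59 and 8.55 on dnHIF1a arrays and 9.61, 9.84 and 9.68 on WT arrays (-1.18 ± 0.132, adjusted p = 0.000103), and its neighbour ctss2.1 fell by 1.13 ± 0.158. The lymphocyte markers had 2 of 11 lower and 0 higher (1 higher at an unadjusted p under 0.05), with nkl.4 at -0.69 ± 0.0859 and runx3 at -0.6 ± 0.115. Only 1 of these 11 had a mean over all arrays above the median of all probe-set means (5.56). Of 11 neutrophil markers 4 fell and 2 rose, with a median of -0.297 (-0.185 without WT array 1). The number that fell was 2 without dnHIF1a array 1. The neutrophil markers that rose, s100a10b (0.59 ± 0.13) and anxa1a (0.76 ± 0.0884), also stand in the list of epithelial genes. The class I list shares 0 genes with the macrophage list, and what the lower leukocyte marker level contributes to the lower immunoproteasome genes was not tested.

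**Figure D2:**
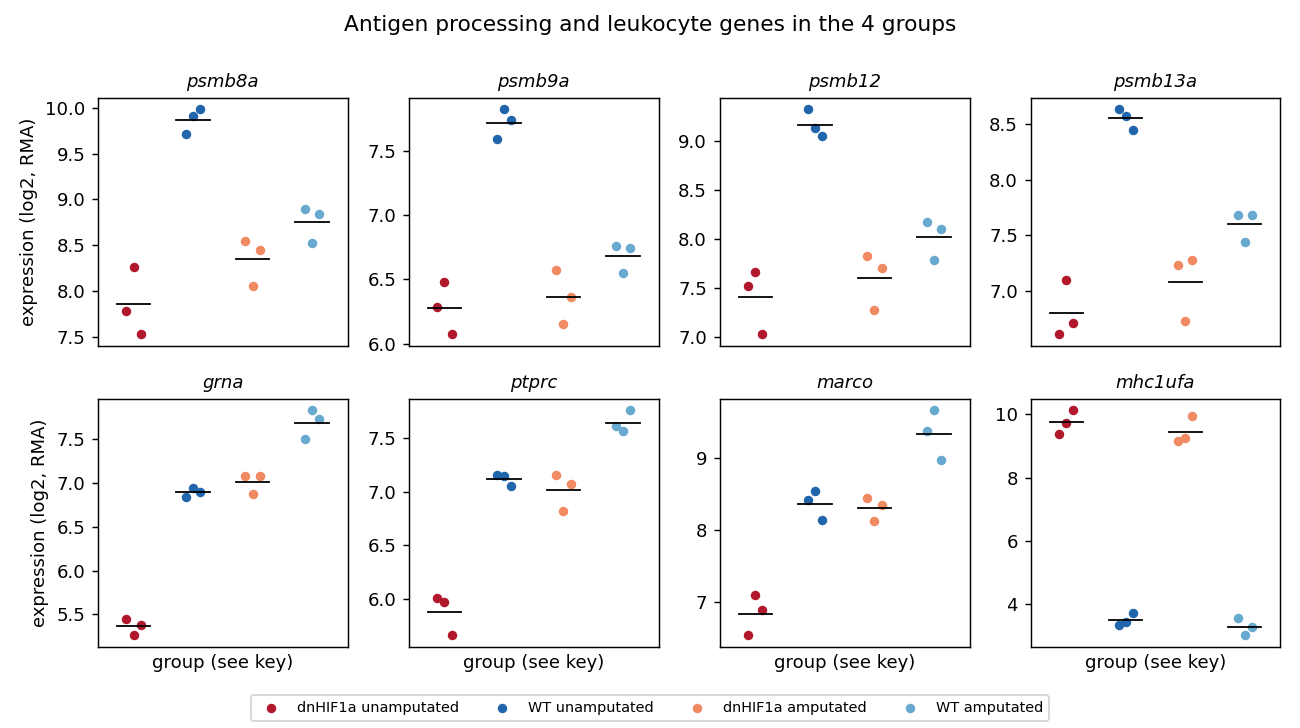
Log2 expression of 4 immunoproteasome genes, 3 leukocyte genes and mhc1ufa in the 4 groups, with 1 point per array and a bar at each group mean; each panel has its own axis. In the unamputated arrays the immunoproteasome and leukocyte genes lie lower in dnHIF1a than in WT hearts, while mhc1ufa lies higher in dnHIF1a hearts with or without amputation.

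Part of the genes of the extracellular matrix and of the epicardium and fibroblasts rose in uninjured dnHIF1a hearts. Of 31 measured matrix genes 9 rose and 2 fell, with a median of 0.163 (0.1 when all probe sets of a gene were averaged). In the list of 18 markers for epicardium and fibroblasts, 8 rose and 0 fell (0 lower at an unadjusted p under 0.05), with a median of 0.328, and 7 genes stand in both lists. The mean of the 18 markers was 7.47 to 7.58 on dnHIF1a arrays and 6.95 to 7.12 on WT arrays. The periostin gene postnb, a matrix protein of activated fibroblasts, read 8.85, 9.27 and 8.62 on dnHIF1a arrays and 7.1, 7.46 and 6.45 on WT arrays, 3.76-fold higher in dnHIF1a hearts (1.91 ± 0.23, adjusted p = 0.000191). The type I collagen gene col1a1a read 10.12, 10.14 and 9.94 on dnHIF1a arrays and 9.38, 8.95 and 8.97 on WT arrays (0.97 ± 0.12, adjusted p = 0.000236). The gelatinase gene mmp2 read 8.88, 8.93 and 8.65 on dnHIF1a arrays and 7.97, 8.04 and 7.88 on WT arrays (0.86 ± 0.109, adjusted p = 0.000279). The lowest dnHIF1a array was above the highest WT array for each of them. Chosen after their values were seen, the partner collagen gene col1a2 (1.01 ± 0.142), the follistatin-like gene fstl1b (1.01 ± 0.161) and the collagen-binding protein gene sparc (0.59 ± 0.126) rose as well. The basement membrane gene lama5 (-0.69 ± 0.11, adjusted p = 0.00145) and col12a1b (-0.43 ± 0.0834, adjusted p = 0.00486) were the 2 that fell.

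Matrix enzymes and collagen processing genes split. Of 18 measured, 2 rose (mmp2 and the membrane-bound metalloproteinase gene mmp14a, 0.45 ± 0.0916) and 5 fell, with a median of -0.0533. The 5 were mmp13a, p4ha1b, p4ha2 and, chosen after their values were seen, mmp9 (-1.28 ± 0.355, adjusted p = 0.0356) and timp2b (-0.87 ± 0.251, adjusted p = 0.0425). The number that fell was 3 when any 1 of WT array 1, WT array 3 or the 3 dnHIF1a arrays was left out. Without WT array 1, mmp9 was at -0.91 (adjusted p = 0.107) and timp2b at -0.6 (adjusted p = 0.127). Without WT array 3 they were at -1.16 (adjusted p = 0.097) and -0.93 (adjusted p = 0.0638). Without dnHIF1a array 1, 2 or 3, mmp9 was at -1.19 (adjusted p = 0.113), -1.41 (adjusted p = 0.0572) or -1.24 (adjusted p = 0.0908) and timp2b at -0.84 (adjusted p = 0.115), -0.88 (adjusted p = 0.0969) or -0.88 (adjusted p = 0.0889).

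Smooth muscle and mural cell genes showed the highest list median, 1.13 over 7 measured genes, of which 4 rose and 1 fell. Only these 4 of the 7 had a difference above 0, so the median is the smallest of the 4 rises. At an unadjusted p under 0.05, 2 were lower, and the list names 24 genes in all. The smooth muscle actin gene acta2 read 9.02, 9.02 and 10.03 on dnHIF1a arrays and 7.95, 7.31 and 7.6 on WT arrays (1.74 ± 0.23, adjusted p = 0.000374). The myosin light chain kinase gene mylka rose by 1.15 ± 0.184 (adjusted p = 0.00151), and tagln (1.19 ± 0.223) and myl9b (1.13 ± 0.206), chosen after their values were seen, rose too. The mean of the 7 markers was 8.40, 8.22 and 8.50 on dnHIF1a arrays and 7.98, 7.73 and 7.75 on WT arrays. The creatine kinase gene ckbb fell by 1.0 ± 0.225 (adjusted p = 0.0118), a call lost without dnHIF1a array 2 (-0.91, adjusted p = 0.0521). The regulator of G protein signalling gene rgs5a, a pericyte gene in mammals, read 8.65, 8.23 and 8.4 on dnHIF1a arrays and 6.64, 6.04 and 5.56 on WT arrays, 5.09-fold higher in dnHIF1a hearts (2.35 ± 0.217, adjusted p = 2.16e-05). Its second probe set rose by 2.22, and the adjacent gene rgs4, chosen after its values were seen, rose by 2.05 ± 0.231.

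The caveola gene cav1 read 10.94, 11.06 and 11 on dnHIF1a arrays and 10.32, 9.83 and 9.85 on WT arrays (1.0 ± 0.121, adjusted p = 0.000199). Its other 3 probe sets were at 1.69, 0.97 and 0.06. The last had means of 3.79 on dnHIF1a and 3.73 on WT arrays, below the array medians. The caveola genes cav2 (2.02 ± 0.0927, adjusted p = 8.4e-08) and ehd2b (1.34 ± 0.122, adjusted p = 1.97e-05) and the integrin adaptor gene lims2 (2.01 ± 0.112, adjusted p = 3.37e-07), chosen after their values were seen, rose without overlap between the genotypes. Of 18 endothelium and endocardium markers 3 rose and 2 fell, with a median of 0.0483. The fenestral diaphragm gene plvapb rose by 0.95 ± 0.147 (adjusted p = 0.00122). The endothelial transcription factor gene erg read 6.55, 5.99 and 7.33 on dnHIF1a arrays and 7.71, 7.75 and 7.7 on WT arrays (-1.1 ± 0.254, adjusted p = 0.0141). The dnHIF1a arrays spread for erg while the WT arrays stood close together, and without dnHIF1a array 1 the call was lost (-1.06, adjusted p = 0.0514). The other gene that fell was tie1 (-0.25 ± 0.0735, adjusted p = 0.0485). Its call was lost without WT array 2 (-0.21, adjusted p = 0.138), WT array 3 (-0.24, adjusted p = 0.0944), dnHIF1a array 1 (-0.28, adjusted p = 0.0671), dnHIF1a array 2 (-0.19, adjusted p = 0.181) or dnHIF1a array 3 (-0.27, adjusted p = 0.0817). The number that fell was then 1, except without dnHIF1a array 1, where it was 0.

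In heart muscle genes the myosin heavy chain gene myh7 stood apart. It read 11.22, 10.11 and 9.87 on dnHIF1a arrays and 7.88, 8.53 and 8.66 on WT arrays (2.04 ± 0.296, adjusted p = 0.000747). Of 28 measured sarcomere and cardiomyocyte genes it was the 1 that rose and 4 fell, and the list median was -0.0817. The intermediate filament gene desma read 11.94, 11.82 and 11.87 on dnHIF1a arrays and 12.6, 12.28 and 12.44 on WT arrays (-0.56 ± 0.0828, adjusted p = 0.000828), and the cardiac troponin C gene tnnc1a fell by 0.47 ± 0.0988 (adjusted p = 0.00797). myl7, whose promoter drives the transgenes, read 14.77, 14.75 and 14.8 on dnHIF1a arrays and 14.72, 14.71 and 14.73 on WT arrays (0.05 ± 0.0606, adjusted p = 0.657), close to the array maxima of 14.86 to 15.04. Of the other 2 that fell, xirp2a, chosen after its values were seen, was at -0.68 ± 0.202 with overlapping groups (adjusted p = 0.0471), and ttn.2 at -0.27 ± 0.0813 (adjusted p = 0.048). The number that fell was 2 without WT array 3, dnHIF1a array 2 or dnHIF1a array 3. Without those arrays xirp2a was at -0.75 (adjusted p = 0.0621), -0.67 (adjusted p = 0.121) and -0.55 (adjusted p = 0.164), and ttn.2 at -0.24 (adjusted p = 0.122), -0.3 (adjusted p = 0.0794) and -0.21 (adjusted p = 0.182). Without WT array 2 both calls were lost too (xirp2a -0.43, adjusted p = 0.146; ttn.2 -0.24, adjusted p = 0.132), and that of ttn.2 without dnHIF1a array 1 (-0.31, adjusted p = 0.0635).

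Of 16 calcium handling and ion channel genes 4 rose and 0 fell (1 lower at an unadjusted p under 0.05). The sodium pump gene atp1a1b read 6.38, 6.26 and 6.25 on dnHIF1a arrays and 5.56, 5.58 and 5.67 on WT arrays (0.69 ± 0.1, adjusted p = 0.000747). The calcium pump gene atp2a2a, which refills the sarcoplasmic reticulum, rose by 0.41 ± 0.0829 (adjusted p = 0.00653), beside -0.07 from a second probe set. That second probe set had means of 4.25 on dnHIF1a and 4.31 on WT arrays, below the array medians, against 13.31 and 12.9 for the first. The number that rose was 2 without WT array 2 or dnHIF1a array 3. Among 25 cardiac transcription factor genes 1 rose and 3 fell, where 12.5% of all genes were called. The chamber gene irx4a read 4.78, 4.61 and 4.77 on dnHIF1a arrays and 5.39, 5.74 and 5.79 on WT arrays (-0.92 ± 0.0961, adjusted p = 5.94e-05). gata4 overlapped between the genotypes (-0.02 ± 0.0791, adjusted p = 0.917). The gene that rose was tbx2b (0.57 ± 0.139, adjusted p = 0.0193), a call lost without WT array 3 (0.5, adjusted p = 0.0636), dnHIF1a array 1 (0.52, adjusted p = 0.0789) or dnHIF1a array 3 (0.45, adjusted p = 0.0776). The number of genes that rose was 2 without WT array 1, and the number that fell was 6 without dnHIF1a array 3.

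**Figure D3:**
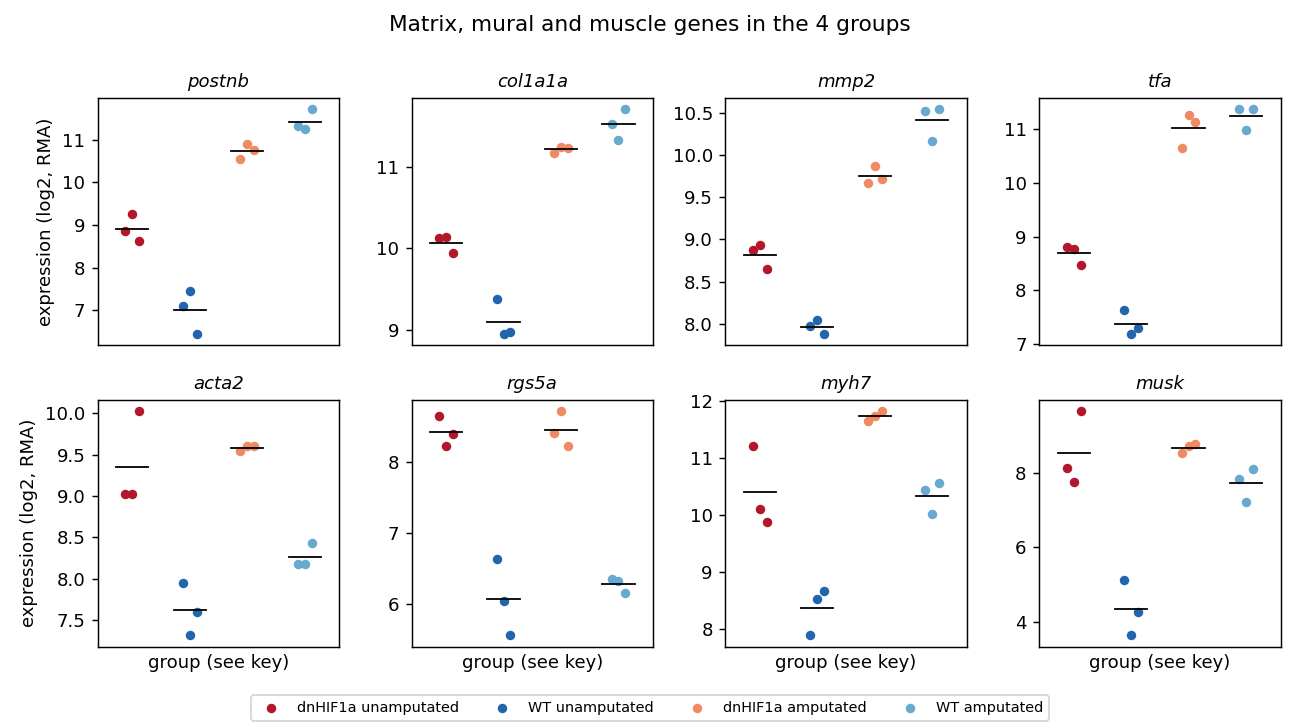
Log2 expression of matrix genes (postnb, col1a1a, mmp2), tfa, acta2, rgs5a, myh7 and musk in the 4 groups, with 1 point per array and a bar at each group mean; each panel has its own axis. In uninjured hearts all 8 lie higher in dnHIF1a than in WT, and in amputated hearts postnb, col1a1a and mmp2 lie lower in dnHIF1a than in WT while acta2, rgs5a and myh7 lie higher.

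Targets of FOXO factors and of the glucocorticoid receptor, which answer to fasting and stress hormones, formed a list drawn up with values of these arrays known. Of 32 measured, 8 rose and 2 fell, with a median of 0.337. The mean of the 32 genes was 7.95, 7.97 and 7.54 on dnHIF1a arrays and 7.31, 7.29 and 7.67 on WT arrays. The genotypes overlapped, since the third dnHIF1a array lay below the third WT array. The cyclin G2 gene ccng2 read 9.4, 9.66 and 8.9 on dnHIF1a arrays and 7.55, 7.53 and 8.32 on WT arrays (1.52 ± 0.221, adjusted p = 0.000762), and its second probe set rose by 1.3. The glucocorticoid-induced factor gene klf9 read 9.76, 10.21 and 7.97 on dnHIF1a arrays and 7.17, 6.94 and 7.53 on WT arrays (2.1 ± 0.437, adjusted p = 0.00788). The third dnHIF1a array was the lowest of its group for both genes and stood closest to the WT arrays. The same held for tsc22d3, a glucocorticoid-induced gene chosen after its values were seen, with 9.96, 9.87 and 8.83 on dnHIF1a arrays and 8.18, 8.44 and 8.69 on WT arrays (1.12 ± 0.248, adjusted p = 0.0113). Its call was lost without dnHIF1a array 1 (0.91, adjusted p = 0.0531) or 2 (0.96, adjusted p = 0.0524). The number of the list that fell was 0 without WT array 3 or dnHIF1a array 3 and 1 without WT array 2, dnHIF1a array 1 or dnHIF1a array 2. Without dnHIF1a array 1 or 2 the list had 5 genes that rose, and its median was 0.16 without WT array 1, 0.198 without WT array 2 and 0.22 without dnHIF1a array 2.

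Of 31 heat shock genes 8 fell and 1 rose, with a median of -0.15. The chaperone gene hspa8b read 4.71, 4.83 and 4.73 on dnHIF1a arrays and 5.53, 5.59 and 5.55 on WT arrays (-0.8 ± 0.0829, adjusted p = 5.74e-05). The HSP90 cofactor gene ahsa1a read 7.77, 7.89 and 7.92 on dnHIF1a arrays and 8.6, 8.89 and 8.83 on WT arrays (-0.91 ± 0.104, adjusted p = 0.000117). Both separated the genotypes, and the small heat shock gene hspb1, chosen after its values were seen, did so too (-0.74 ± 0.0908, adjusted p = 0.000218). The number that fell was 5 without WT array 1 or dnHIF1a array 2, and the median was -0.0733 without WT array 1. Of 46 immediate-early genes 1 rose (klf9) and 4 fell, where 12.5% of all genes were called. The small GTPase gene rrad read 8.99, 8.48 and 9.25 on dnHIF1a arrays and 10.15, 9.85 and 9.78 on WT arrays (-1.02 ± 0.186, adjusted p = 0.00344), and myca fell by 0.78 ± 0.169. Without dnHIF1a array 2 the number that fell was 2, and without WT array 3 or dnHIF1a array 3 the number that rose was 4.

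Of 27 genes of the p53 response and apoptosis 4 rose and 4 fell. The stress gene tp53inp1 read 8.11, 8.01 and 7.82 on dnHIF1a arrays and 6.41, 6.58 and 6.76 on WT arrays (1.4 ± 0.1, adjusted p = 3.05e-06). phlda3, a repressor of Akt signalling, read 5.55, 5.69 and 5.96 on dnHIF1a arrays and 7.69, 7.19 and 7.19 on WT arrays (-1.62 ± 0.166, adjusted p = 5.12e-05). The death effector gene baxa fell by 0.56 ± 0.0869. None of these 3 genes overlapped between the genotypes.

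Among 47 growth factor signalling genes 7 rose and 2 fell. The Wnt modulator gene dkk3b read 7.1, 7.23 and 7.31 on dnHIF1a arrays and 6.32, 6.07 and 6.03 on WT arrays (1.07 ± 0.105, adjusted p = 3.46e-05). The midkine gene mdkb rose by 0.86 ± 0.109 (adjusted p = 0.000263). wnt11, a ligand of non-canonical Wnt signalling, read 5.12, 5.0 and 4.98 on dnHIF1a arrays and 6.56, 5.73 and 6.35 on WT arrays (-1.18 ± 0.17, adjusted p = 0.000713). The other gene that fell was igf2b (-0.58 ± 0.15, adjusted p = 0.0237), with -0.37 (adjusted p = 0.0369) without WT array 1. Its call was lost without dnHIF1a array 1 (-0.54, adjusted p = 0.0866) or 3 (-0.58, adjusted p = 0.0626). The chemokine gene cxcl12b (1.48 ± 0.288, adjusted p = 0.00528) and the IGF-binding protein gene igfbp2a (1.22 ± 0.187, adjusted p = 0.00117), chosen after their values were seen, were the highest of the 7 that rose.

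Iron and haem genes ran both ways, with 2 of 15 higher and 3 lower. tfa read 8.81, 8.78 and 8.48 on dnHIF1a arrays and 7.64, 7.19 and 7.3 on WT arrays, and the iron importer gene slc11a2 rose by 0.74 ± 0.092 (adjusted p = 0.000226). The haptoglobin gene hp, which binds free haemoglobin, read 4.92, 5.03 and 5.33 on dnHIF1a arrays and 6.76, 6.48 and 6.5 on WT arrays (-1.49 ± 0.134, adjusted p = 1.97e-05). The haem synthesis gene cpox read 7.64, 7.58 and 7.66 on dnHIF1a arrays and 8.73, 8.85 and 8.79 on WT arrays (-1.16 ± 0.0943, adjusted p = 9.78e-06). cpox was the 1 of 24 red blood cell markers that fell, and 0 rose (1 higher at an unadjusted p under 0.05).

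Lists of cell division and protein synthesis are read against the 12.5% of all genes that were called. Of 48 DNA replication genes 0 passed limma's test in either direction, with 2 lower and 0 higher at an unadjusted p under 0.05. Of these 48, 13 had a difference above 0, and the median was -0.065 (0.015 without WT array 2). Of 48 mitosis genes 2 rose (1 without WT array 1, WT array 2, dnHIF1a array 2 or dnHIF1a array 3) and 1 fell (2 without WT array 1 or 3), and the most marked, kif20a (0.98 ± 0.177) and kif23 (-0.67 ± 0.131), had a second probe set at -0.09 for kif20a and at 0.01 for kif23. Among the mitosis genes 9 had a difference above 0, and the median was -0.12 (-0.0392 without WT array 2). WT array 2 had the highest mean of both lists, 6.25 for DNA replication and 5.61 for mitosis. Of 71 ribosomal protein genes 3 rose and 0 fell by limma's test (14 higher and 1 lower at an unadjusted p under 0.05), 65 had a difference above 0 and the median was 0.09. The number that rose was 0 without WT array 2, dnHIF1a array 1 or dnHIF1a array 3 and 1 without WT array 1 or 3, and 1 fell without WT array 3. Of 79 translation factor and tRNA synthetase genes 9 rose and 2 fell. Without dnHIF1a array 1 the number of these that rose was 0, without dnHIF1a array 3 it was 2, and without WT array 2 it was 5. Of 22 Notch signalling genes 0 passed limma's test, with 3 higher and 2 lower at an unadjusted p under 0.05.

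Markers of other tissues were measured to describe what a dissected heart may carry along. Of 41 epithelial markers 5 rose and 0 fell (1 lower at an unadjusted p under 0.05), with a median of -0.0133. The keratin gene krt15 read 10.03, 9.74 and 9.73 on dnHIF1a arrays and 8.57, 8.67 and 9.04 on WT arrays (1.07 ± 0.119, adjusted p = 9.82e-05). anxa1a read 11.63, 11.62 and 11.67 on dnHIF1a arrays and 10.93, 10.93 and 10.77 on WT arrays (0.76 ± 0.0884, adjusted p = 0.000133). The mean of the 41 markers was 6.22 to 6.28 on dnHIF1a arrays and 6.11 to 6.19 on WT arrays. Called genes numbered 1 of 25 for skeletal muscle, 4 of 26 for liver, 2 of 19 for exocrine pancreas and gut, 1 of 25 for gonad and 1 of 24 for neuron and glia, where 12.5% of all genes were called. In the same order, only 5, 5, 7, 3 and 7 markers had a mean over all arrays above the median of all probe-set means (5.56). Few calls among markers at such levels say little about these tissues. The skeletal muscle count was 0 without WT array 1, 2 or 3 or dnHIF1a array 1. The gonad gene was lost without WT array 2 or 3 or any 1 of the dnHIF1a arrays, and 1 pancreas and gut gene without WT array 2 or 3 or dnHIF1a array 2 or 3. What these tissues contribute to the epithelial and liver genes named here was not tested.

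**Figure D4:**
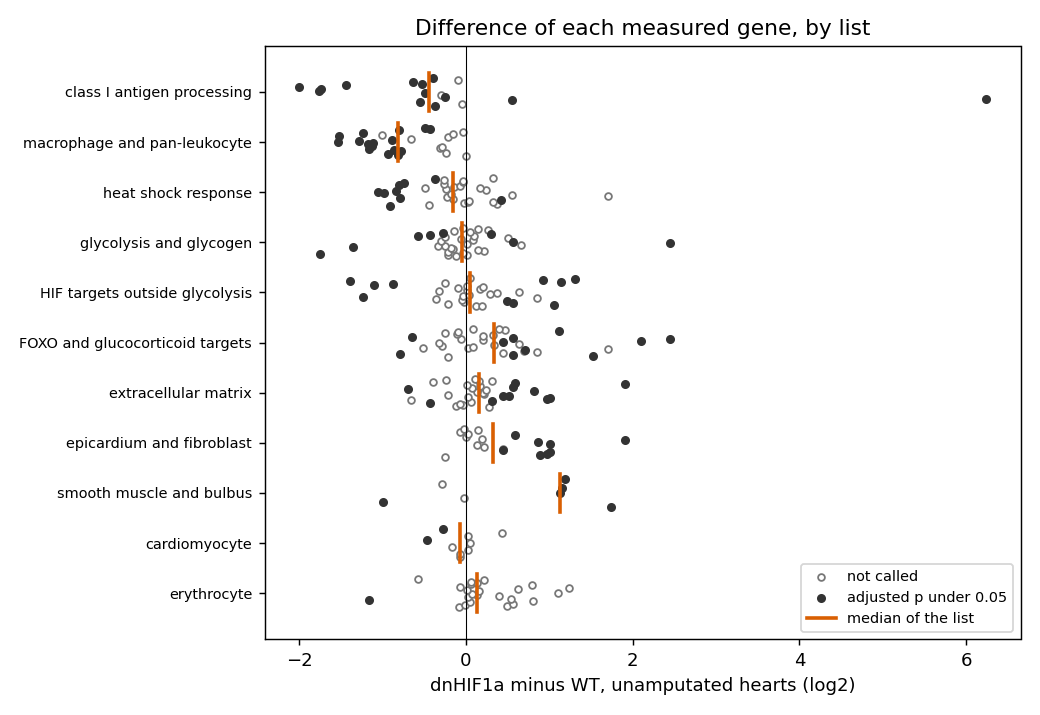
Difference of each measured gene (dnHIF1a minus WT, unamputated hearts, log2) in 11 of the gene lists, with filled points at an adjusted p under 0.05, open points above it and an orange bar at the list median. Macrophage and class I genes lie mostly below 0, and epicardium and fibroblast and FOXO genes mostly above it. Of the 7 smooth muscle genes 4 lie above 0, and the glycolysis and HIF target lists straddle it.

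The same difference in amputated hearts used other arrays of both genotypes, and there 2000 probe sets (12.9%) passed, with 954 higher (6.15%) and 1046 lower (6.75%). Of the 1764 probe sets called in uninjured hearts, 1439 (81.6%) had the same sign after amputation and 710 (40.2% of these 1764, and 35.5% of the 2000) were called in the same direction, against 40 called in the opposite one. The share with the same sign over all probe sets is not given here. Both comparisons share 1 estimate of the spread, so a probe set with a small spread is favoured for a call in both. Of the 148 that were at least 1 log2 unit higher, 126 (85.1%) kept the sign, and the median was 1.44 in uninjured and 0.782 in amputated hearts. Of the 106 that were at least 1 log2 unit lower, 102 (96.2%) kept it, with medians of -1.28 and -0.737. Having been picked for size in uninjured hearts, these sets have medians there that the choice itself raises. Among the 12 highest and 12 lowest genes, 15 of 24 were called in the same direction after amputation.

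Genes called in the same direction with and without injury include several of the largest. mhc1ufa read 9.16, 9.24 and 9.95 on amputated dnHIF1a arrays and 3.57, 3.02 and 3.29 on amputated WT arrays, a difference of 6.16, and pygl differed by 3.07 there. rgs5a read 8.41, 8.72 and 8.23 on amputated dnHIF1a arrays and 6.35, 6.33 and 6.16 on amputated WT arrays (2.17, adjusted p = 5.63e-05). Within amputated hearts, ak1 was lower in dnHIF1a than in WT by 2.06 and cox7b by 1.44. The cox7b values were 11.67, 11.56 and 11.55 on amputated dnHIF1a arrays and 13.05, 13.03 and 13.03 on amputated WT arrays. Each of these 5 genes was called in both comparisons, and none had a called difference between them. Such a difference was called for only 2.24% of all probe sets, so its absence does not show that the 2 differences were equal. myh7 (1.4, adjusted p = 0.00846), acta2 (1.33, adjusted p = 0.00281), gpib (-1.1, adjusted p = 0.00111) and hp (-2.03, adjusted p = 1.96e-06) were also called after amputation.

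The difference between the genotype differences passed the test for 347 probe sets (2.24%). This count was 194 without unamputated dnHIF1a array 1, 161 without dnHIF1a array 2 and 590 without WT array 3. Matrix genes were among those with the largest. The genes named for it were mostly chosen by their unamputated difference, which enters this test, and that choice favours larger values. postnb read 10.54, 10.91 and 10.76 on amputated dnHIF1a arrays and 11.31, 11.25 and 11.71 on amputated WT arrays (-0.69, adjusted p = 0.0706), against 1.91 in uninjured hearts, and the difference of 2.6 passed (adjusted p = 0.00342). mmp2 was lower in amputated dnHIF1a hearts (-0.66, adjusted p = 0.00222) and higher in uninjured ones, with an adjusted p of 0.00101 for the difference. In the matrix list 7 genes, and among the epicardium and fibroblast markers 7, had a called difference, and the medians of these lists were -0.287 and -0.305 after amputation. On WT arrays mmp2 read 10.52, 10.17 and 10.54 after amputation, above each of the 3 unamputated WT values.

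The immunoproteasome genes had a smaller genotype difference after amputation. psmb8a read 8.55, 8.06 and 8.45 on amputated dnHIF1a arrays and 8.9, 8.53 and 8.84 on amputated WT arrays (-0.4, adjusted p = 0.167), and the difference of -1.6 from uninjured hearts passed (adjusted p = 0.00985). psmb9a, psmb12 and psmb13a, at -0.32 (adjusted p = 0.11), -0.41 (adjusted p = 0.149) and -0.52 (adjusted p = 0.0412) after amputation, had called differences between the conditions too. The leukocyte gene grna was lower in both conditions, with a smaller difference after amputation (-0.67, adjusted p = 0.000677) and a called difference between them (-0.86, adjusted p = 0.00982). ptprc read 7.16, 6.82 and 7.07 on amputated dnHIF1a arrays and 7.61, 7.57 and 7.76 on amputated WT arrays (-0.63, adjusted p = 0.00271). Of the 25 macrophage markers 13 were called lower after amputation, with a median of -0.507, and grna was the 1 with a called difference between the conditions.

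musk differed by 0.95 in amputated hearts (adjusted p = 0.19), with 8.54, 8.72 and 8.77 on dnHIF1a arrays and 7.84, 7.22 and 8.11 on WT arrays, and the difference of 3.23 passed (adjusted p = 0.0221). ccng2 turned direction, with 8.21, 8.43 and 8.07 on amputated dnHIF1a arrays and 8.91, 8.81 and 9.2 on amputated WT arrays (-0.74, adjusted p = 0.0458). tp53inp1 was at -0.25 after amputation (adjusted p = 0.129), and its difference of 1.65 passed with an adjusted p of 0.000379. The FOXO and glucocorticoid list had 0 genes called higher and 7 called lower after amputation, with a median of -0.357, and 5 members had a called difference. krt15 was lower in amputated dnHIF1a hearts (-0.68, adjusted p = 0.00283) and higher in uninjured ones.

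**Figure D5:**
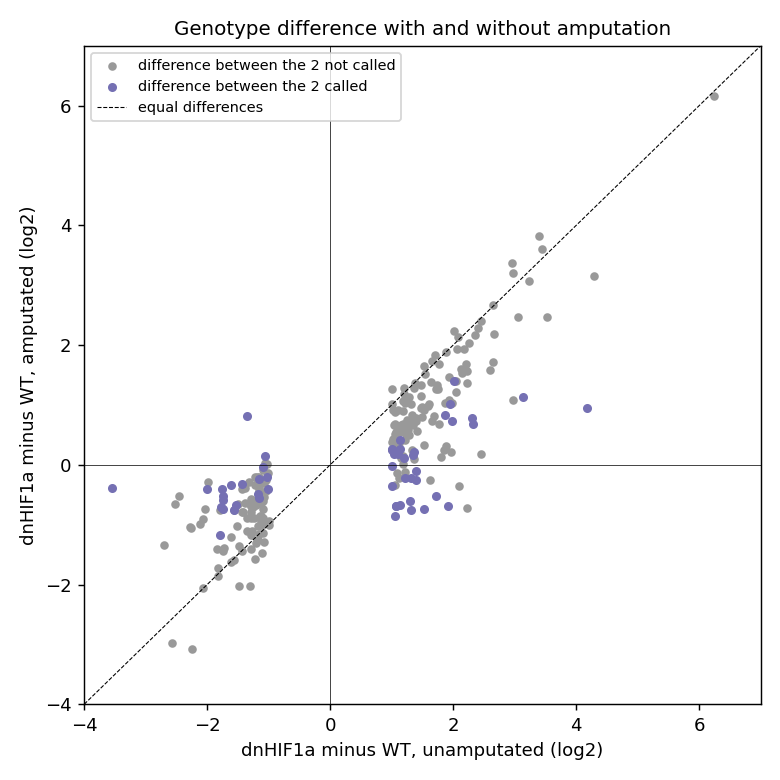
Genotype difference (dnHIF1a minus WT, log2) in unamputated hearts (horizontal axis) and amputated hearts (vertical axis) for the 254 probe sets called in unamputated hearts at 1 log2 unit or more, with purple points where the difference between the 2 passed the test and a dashed line at equality. Most points keep their sign and lie nearer to 0 on the vertical axis, and the right-hand purple points below 0 have the opposite sign after amputation. Of the 148 probe sets on the right, 3 were called lower in amputated dnHIF1a hearts.

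Some of the large differences lay at adjacent genes. In the gene order of the RefSeq assembly GRCz12tu, 8695 pairs of measured genes were neighbours, and in 90 of them both genes were called in the same direction, against 72 in opposite directions. Over all genes 6.3% were called higher and 6.24% lower, and whether 90 exceeds the number these shares give was not tested. Both members changed by at least 1 log2 unit in the same direction in 9 pairs. These include sult2st1 and sult2st2 (4.29 and 2.22), rgs4 and rgs5a (2.05 and 2.35), cav2 and cav1 (2.02 and 1.0) and ctss2.1 and ctss2.2 (-1.13 and -1.18). Another 3 pairs form the run psmb13a, psmb8a, psmb12 and psmb9a, and the last 2 are pln2 with fam184aa (1.25 and 1.12) and rnf146 with cltrn (1.4 and 1.18). Probe sets of near-identical neighbours such as the sulfotransferase and cathepsin genes may cross-hybridise, which was not tested. Of 28 genes with a difference of at least 1 log2 unit and more than 1 probe set, 24 had another probe set called in the same direction, 3 (glulb, samsn1a and coro1a) had none called, and pcmt had a difference of 1.36 beside -1.22 and -0.43 from 2 other called probe sets.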

How the data were processed

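RNA of 12 zebrafish heart samples was measured on 12 Affymetrix arrays, and the authors deposited 1 log2 value for each probe set and array, made by robust multi-array average (RMA) normalization, per the submitters' processing notes, which also name limma; versions are not given there. Per the labels' protocols, the target was made with a sense-strand labelling kit, and whether its strand suits the probes of this array was not settled. The files hold 15617 probe sets, of which 115 array controls were left out. The platform annotation names 1 gene for 10795 probe sets, several for 135 and none for 4572. A gene with several probe sets was represented by the one with the highest mean over all arrays. Group means were fitted to all 12 arrays with limma 3.58.1 in R 4.3.3, with 8 residual degrees of freedom, with Benjamini-Hochberg correction across 15502 probe sets and calls at an adjusted p under 0.05.

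The test of the genotype difference was checked on simulated data for 15502 probe sets, of which 200 were changed: it recovered 79.1% at 1.5-fold, 100% at 2-fold and 98.5% at 3-fold, with 11 false calls. The simulated noise was normal and independent between probe sets, and only these 200 differed, where 11.4% were called in the data. These figures check the procedure and do not give the error rate of the reported calls. Deviations of same-numbered arrays from their group means correlated between -0.191 and 0.133, so the numbers were not used to pair arrays. Precision is limited by having 3 arrays per group, and RMA values carry no measure of background. The rule for naming took the 12 genes with the largest rise and the 12 with the largest fall among called genes whose groups did not overlap and whose higher group mean reached the median of all probe-set means (5.56), leaving out clone-style symbols. It added, per list and direction, up to 2 called genes with the smallest p, and a set of HIF and heart genes whatever their values. These members and lists were chosen with earlier results of these data known. Lists are described by counts and medians alone. Alternatives were single arrays left out, unamputated arrays alone, array weights, other normalizations and priors, filters and other probe sets.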

Additional observations from a re-analysis of the deposited data

Results flagged for a closer look

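The genotype difference (dnHIF1a minus WT) was not the same in unamputated and amputated hearts for 28 of the 140 named genes. The test was limma's, of the difference between the 2 differences, with Benjamini-Hochberg adjustment over all probe sets. Over all probe sets 2.24% passed it. Most named genes were chosen for a called unamputated difference, which enters this test, so the choice itself raises the count of 28. The values here are the unamputated difference minus the amputated one, in log2 units. Among matrix genes the value was 2.6 for postnb, 1.51 for mmp2, 1.27 for col1a1a and 0.97 for mmp14a. For the iron and retinol carriers it was 1.54 for tfa and 0.88 for rbp4. For stress and cell cycle genes it was 2.26 for ccng2, 1.65 for tp53inp1 and -1.28 for phlda3. For the keratin, annexin and claudin genes it was 1.76 for krt15, 1.09 for anxa1a and 1.64 for cldn11a.

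The immunoproteasome genes gave -1.6 for psmb8a, -1.35 for psmb12, -1.22 for psmb13a and -1.12 for psmb9a, and the granulin gene grna gave -0.86. Genes of energy metabolism gave -1.16 for ldhbb, -1.01 for aldocb, -0.91 for dldh and 0.89 for cox4i2. The remaining values were 3.23 for musk, 1.99 for tppp3, 1.51 for lrrc4.1, -1.08 for mpp2b, 0.73 for cav1, -0.61 for cpox and -0.56 for desma. Leaving out single unamputated arrays ended the call for 6 of the 28, with the highest adjusted p at 0.105 for cav1, 0.0505 for cldn11a, 0.0838 for cpox, 0.0766 for desma and 0.084 for dldh. For tppp3 the highest was 0.0734. Leaving out amputated arrays was not run.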

How the results depend on the processing

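Leaving out single arrays gave 1182 to 1698 called probe sets in place of 1764, with 604 to 879 higher and 576 to 819 lower, and the fewest were called without dnHIF1a array 1. With a difference of at least 0.5 log2 units required as well, 921 were called, 503 higher and 418 lower. Among lists whose counts fell, translation factors and tRNA synthetases had 1 gene higher, not 9, and ribosomal proteins 0, not 3. Splicing factors had 1 lower in place of 5 and the constitutive proteasome 0 in place of 3. Oxidative phosphorylation had 0 higher in place of 3 and 2 lower in place of 4. Glycolysis and glycogen had 3 lower in place of 5. With only the unamputated arrays fitted, 1209 probe sets were called, 649 higher and 560 lower. Array weights (1613), median centring (1746), repeated quantile normalization (1848), a trended and robust prior (1750) and filters on the dimmest (1674) or flattest (1787) probe sets moved the count by less than 1.5 times. The replicate number as a block gave 1666, with 872 higher and 794 lower, 311 in place of 347 for the difference of the differences, and 1789 in place of 2000 for amputated hearts. Repeated quantile normalization gave 384 and 2003 for these. The block and the normalization in amputated hearts were chosen after seeing the data. Of 128 named genes that were called, 100 kept the call without any single array. With only the unamputated arrays fitted, 106 of the 128 kept it and 22 did not. Genes that lost it include cited4a (adjusted p = 0.138), pgk1 (0.101), igf2b (0.0984), bhlhe41 (0.0771), ckbb (0.0705), tbx2b (0.0584) and erg (0.057). Among other probe sets of the 128 genes, 22 gave the same result and 13 kept the sign but did not pass. Those 13 include runx3 (-0.24, adjusted p = 0.111), mmp14a (0.24, adjusted p = 0.0721) and mhc1uda (0.34, adjusted p = 0.0544). The sign turned in 4 other probe sets, at 0.01 for kif23, 0.06 for ttn.2, -0.07 for atp2a2a and -0.09 for kif20a, and the cause was not tested. That of atp2a2a lay below the array medians on every array.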

Other observations

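Between unamputated dnHIF1a and WT hearts 12.5% of all genes were called, against which further lists are given. Of 26 genes of ER chaperones and secretory load, 3 rose and 3 fell. The translocon-associated gene ssr4 read 10.21, 10.02 and 10.15 on dnHIF1a arrays and 9.63, 9.51 and 9.5 on WT arrays (0.58 ± 0.101, adjusted p = 0.00267 in limma). The number that rose was 1 without WT array 2 or dnHIF1a array 2, and the number that fell was 1 without WT array 1, dnHIF1a array 1 or dnHIF1a array 2. Of 20 genes of cholesterol and fatty acid synthesis 1 rose and 1 fell. The number that rose was 0 without WT array 1, WT array 3 or dnHIF1a array 2, and the number that fell was 2 without WT array 3. The sterol sensor gene insig1 read 6.5, 6.59 and 6.64 on dnHIF1a arrays and 7.32, 7.95 and 7.24 on WT arrays (-0.93 ± 0.168, adjusted p = 0.00334).

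Of 72 splicing factor genes 5 fell and 0 rose in limma (1 higher and 12 lower at an unadjusted p under 0.05). The number that fell was 8 without WT array 3 and 2 without WT array 1, WT array 2, dnHIF1a array 1 or dnHIF1a array 2. The RNA-binding protein gene hnrnpk read 7.66, 7.66 and 7.84 on dnHIF1a arrays and 8.12, 8.12 and 8.14 on WT arrays (-0.41 ± 0.0832, adjusted p = 0.00704). Of 21 circadian repressor and D-box genes, a list drawn up with values of these arrays known, 2 rose and 1 fell. The cryptochrome gene cry4 read 6.9, 7.2 and 6.91 on dnHIF1a arrays and 7.43, 7.43 and 7.62 on WT arrays (-0.49 ± 0.105, adjusted p = 0.00923). The number that rose was 0 without WT array 2, dnHIF1a array 1 or dnHIF1a array 2. The times of day at which hearts were taken are not given in the labels.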
